A study of Mus musculus with 8 samples.

Results

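The genes of the proteasome were compared between the limbal rim and the corneal button of the mouse eye, with the constitutive catalytic subunits set against those of the immunoproteasome. The limbal rim is the zone that joins the cornea to the conjunctiva and the sclera and holds the limbal epithelial stem cells, and the corneal button is the clear cornea inside that ring. The genes were every row of the deposited table whose symbol is Psma, Psmb, Psmc, Psmd, Psme, Psmf or Psmg followed by a number, which gave 49 of the 23420 named rows. Both groups were wild type C57BL/6J young adult mice with no treatment, and the rims and buttons of many eyes were pooled for each tissue before RNA was extracted. The labels list 8 samples, 4 per tissue, numbered the way sequencing lanes are numbered. The table, however, rests on 2 libraries, 1 per tissue, and holds no value for a numbered sample. No spread between replicates was therefore available, no test across replicates was made, and every interval below is a 95% interval that covers counting error only.

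The proteasome is the protease that degrades proteins tagged with ubiquitin. Its barrel-shaped core is built of outer rings of alpha subunits and inner rings of beta subunits, and a regulatory particle with ATPase subunits caps it, binds the tagged protein, unfolds it and feeds it in. The peptide bonds are cut by the beta1, beta2 and beta5 subunits, encoded by Psmb6, Psmb7 and Psmb5. In immune cells, and in other cells exposed to interferon gamma, these are replaced in newly built cores by Psmb9, Psmb10 and Psmb8, and the resulting immunoproteasome yields peptides suited to presentation on MHC class I molecules.

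The stretches around the RefSeq start sites of the catalytic subunit genes other than Psmb7 are shown first, because they set the constitutive beside the inducible genes. They run from 250 bases before to 50 bases after the annotated start in RefSeq for GRCm38.p6, and capitals mark matches to 1 of 3 patterns on either strand. The patterns were TGACNNNGC, the antioxidant response element read by the NRF factors that drive proteasome genes, TTCNNNGAA, the gamma-activated site found in interferon-induced genes, and GAAANNGAA, the core of the interferon-stimulated response element.
Psmb5 (chr14:54617946-54618245, minus strand): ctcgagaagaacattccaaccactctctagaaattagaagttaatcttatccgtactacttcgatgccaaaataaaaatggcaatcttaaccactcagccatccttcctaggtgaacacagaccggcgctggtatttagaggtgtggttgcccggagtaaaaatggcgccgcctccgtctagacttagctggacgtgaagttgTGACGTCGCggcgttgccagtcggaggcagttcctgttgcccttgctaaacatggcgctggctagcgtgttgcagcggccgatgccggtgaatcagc
Psmb6 (chr11:70525107-70525406, plus strand): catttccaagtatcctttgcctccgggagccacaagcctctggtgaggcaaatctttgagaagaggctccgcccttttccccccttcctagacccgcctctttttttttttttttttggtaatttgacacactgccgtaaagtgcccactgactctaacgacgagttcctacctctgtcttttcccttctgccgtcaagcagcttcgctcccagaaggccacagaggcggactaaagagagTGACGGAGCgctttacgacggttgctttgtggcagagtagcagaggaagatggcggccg
Psmb8 (chr17:34197945-34198244, plus strand): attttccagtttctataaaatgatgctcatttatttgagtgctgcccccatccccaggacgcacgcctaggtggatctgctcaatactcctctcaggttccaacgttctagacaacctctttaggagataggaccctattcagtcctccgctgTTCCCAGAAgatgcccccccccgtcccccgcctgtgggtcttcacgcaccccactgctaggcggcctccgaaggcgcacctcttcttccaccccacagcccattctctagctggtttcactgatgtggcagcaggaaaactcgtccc
Psmb9 (chr17:34187281-34187580, minus strand): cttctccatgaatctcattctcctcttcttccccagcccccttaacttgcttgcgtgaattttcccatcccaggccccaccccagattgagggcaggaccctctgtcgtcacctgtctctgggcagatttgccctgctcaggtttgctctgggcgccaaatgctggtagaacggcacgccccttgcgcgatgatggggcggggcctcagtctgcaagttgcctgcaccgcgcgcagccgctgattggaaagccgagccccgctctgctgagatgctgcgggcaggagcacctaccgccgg
Psmb10 (chr8:105938343-105938642, minus strand): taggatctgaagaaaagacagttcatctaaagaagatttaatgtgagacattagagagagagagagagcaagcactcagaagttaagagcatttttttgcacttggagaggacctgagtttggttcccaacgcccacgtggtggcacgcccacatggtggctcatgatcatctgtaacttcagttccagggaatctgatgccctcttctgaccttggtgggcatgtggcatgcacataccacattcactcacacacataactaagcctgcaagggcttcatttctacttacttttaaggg

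In these windows, Psmb5 and Psmb6 each held 1 match to the antioxidant response element, which 12.4% of all 32851 promoters in the table also held. Psmb8 held 1 match to the gamma-activated site, a pattern that reads the same on both strands and was present in 8.30% of all promoters. The windows of Psmb9 and Psmb10 held none of the 3 patterns, and no marked matches overlapped one another. Among the 41 members with an entry, the antioxidant response element was matched in 6 (Psmb5, Psmb6, Psmc6, Psmd12, Psmd9 and Psme4), the gamma-activated site in 3 (Psmb8, Psmd2 and Psmg1) and the interferon-stimulated core in 7 (Psmb3, Psmb4, Psmc2, Psmd4, Psmd9, Psme1 and Psmg4), against 8.56% of all promoters for the last. These are matches of letters and not measured binding sites. GENCODE, from which gene positions are given below, places the outermost starts of Psmb8 and Psmb9 further upstream, so that these 2 windows lie inside the gene spans and do not cover what precedes the GENCODE starts.

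Reads per library were worked back from the deposited mean signal, and reads divided by the size factor of the library are called normalized reads. Reads on named genes came to 26104317 for the cornea and 21182025 for the limbus. The proteasome genes took 0.477% of the cornea reads (exact binomial interval 0.475 to 0.480%) and 0.491% of the limbus reads (0.488 to 0.494%). Of the 49 genes, Psmb11, the thymus-specific beta5 subunit, was listed at 0, and Psma8, the testis-specific alpha subunit, had 1 read in each library, at or under the floor of 3 reads below which no fold was formed. The remaining 47 genes had between 141 and 5639 cornea reads and between 99 and 4997 limbus reads, and they are set below against the 10825 genes of the table whose mean reached 100 normalized reads and that had more than 3 reads per library. Psmc3ip, a meiotic recombination factor that carries the name of a proteasome gene because its protein binds Psmc3, was matched by name only and had 141 cornea and 99 limbus reads.

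The immunoproteasome subunits had the highest ratios of limbus to cornea of all members. The lowest were those of Psmc6 and Psmd14, of the regulatory particle, and of Psme4, a nuclear activator. The log2 ratio of limbus over cornea ran from -0.78 to 0.63 over the 47 members. Past a fold of 1.5, 2 members were higher in the limbus (Psmb10 and Psmb8), against a background of 14.1% of all tested genes. In the other direction, 3 members were past that fold in the cornea (Psmc6, Psme4 and Psmd14), against 22.5% of all tested genes, and none of the 3 remained past it on total reads or after either centring on GC content described below. Thus 4.26% and 6.38% of the members passed this fold, both below the background, and the interquartile range of the members was 0.47 on the log2 scale against 0.79 for all tested genes. Beyond counting error, the limbus was ahead in 11 members (23.4%, background 31%) and the cornea in 30 (63.8%, background 47.9%), numbers that became 18 and 17 on total reads and 23 and 7 after centring on coding GC content. The median of the members was -0.17 and that of all tested genes -0.13. On scaling to total reads every log2 ratio rises by 0.21, the median of all tested genes then stood at 0.08 and that of the members at 0.03, and the members with more limbal reads went from 15 to 26 of 47.

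**Figure D1:**
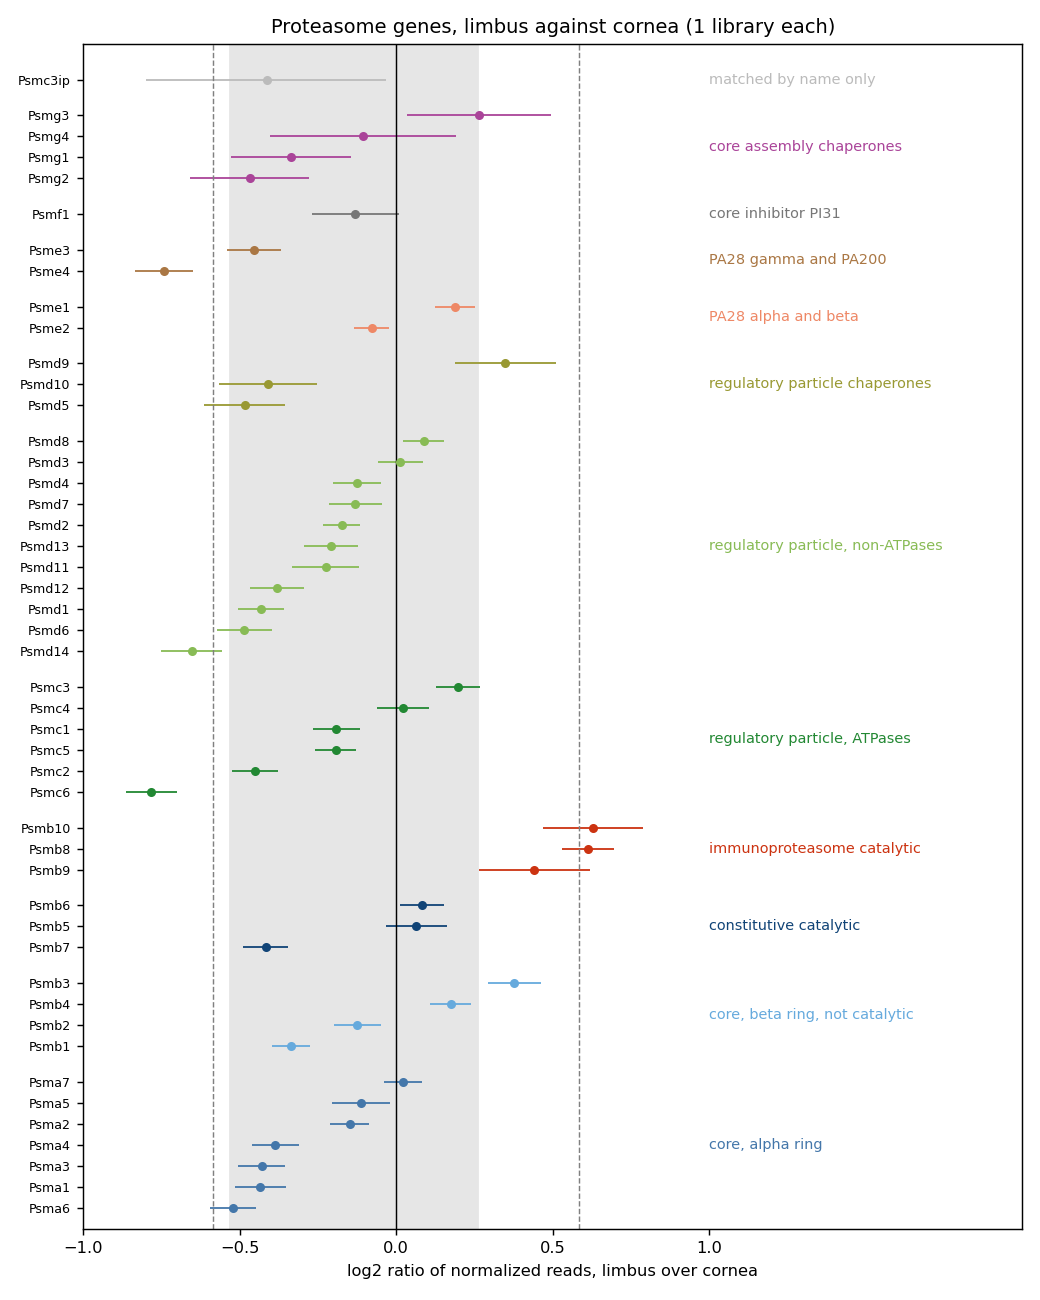
Log2 ratio of normalized reads, limbus over cornea, for the 47 proteasome genes that could be compared, grouped by role. Points are the ratio of 1 library per tissue, bars the 95% counting interval, the grey band the interquartile range of all tested genes (-0.53 to 0.26) and the dashed lines a fold of 1.5. Psmb10 and Psmb8 stand past the line on the limbal side, and Psmc6, Psme4 and Psmd14 past the line on the corneal side.

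All 3 immunoproteasome subunits were higher in the limbus library, by 1.36-fold to 1.55-fold. Psmb8, the inducible beta5 subunit (chr17:34197721-34201454, plus strand, on GRCm38), had 2002 cornea and 2864 limbus reads. Psmb10, the inducible beta2 subunit (chr8:105935735-105938444, minus strand), had 551 and 797 reads. Psmb9, the inducible beta1 subunit (chr17:34181987-34187764, minus strand), had 477 and 606 reads. The difference was 1.53-fold for Psmb8 (log2 0.61, interval 0.53 to 0.70), 1.55-fold for Psmb10 (log2 0.63, interval 0.47 to 0.79) and 1.36-fold for Psmb9 (log2 0.44, interval 0.27 to 0.62), and the direction was the same under every scaling tried. The intervals of the 3 genes overlap one another, so they were not told apart at this depth. Leukocytes make the immunoproteasome constantly, and the summed reads of 11 leukocyte marker genes were 897 in the cornea library and 6522 in the limbus library, as detailed at the end; their part in the difference was not tested. In bulk tissue, fewer cells of a type and less RNA per cell cannot be told apart. Psmb9 overlaps the start of Tap1 on the opposite strand, and whether reads were counted by strand is not given in the sources used here, so part of the reads of Psmb9 could belong to Tap1.

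Their constitutive counterparts all had lower ratios. Psmb5 (chr14:54614119-54618022, minus strand), the beta5 subunit with chymotrypsin-like activity, had 1745 cornea and 1707 limbus reads (log2 ratio 0.06, interval -0.03 to 0.16). Psmb6 (chr11:70525367-70527858, plus strand), the beta1 subunit with caspase-like activity, had 3350 and 3318 reads (0.08, interval 0.01 to 0.15). Psmb7 (chr2:38588036-38644087, minus strand), the beta2 subunit with trypsin-like activity, had 3768 and 2641 reads (-0.42, interval -0.49 to -0.34). Psmb5 and Psmb6 were thus close to equal in the libraries, while Psmb7 was 1.34-fold higher in the cornea by size factors and stayed on that side (log2 -0.21) on total reads. Psmb7 overlaps Nek6 on the opposite strand.

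The share of the inducible member in each catalytic pair needs no scaling between the libraries. For beta5, Psmb8 gave 53.4% of the reads of Psmb8 and Psmb5 in the cornea (exact interval 51.8 to 55.04%) and 62.7% in the limbus (61.2 to 64.1%). For beta2, Psmb10 gave 12.8% (11.8 to 13.8%) in the cornea and 23.2% (21.8 to 24.6%) in the limbus. For beta1, Psmb9 gave 12.5% (11.4 to 13.6%) and 15.4% (14.3 to 16.6%). The limbal share was the higher in all 3 pairs, with the ratio of the odds, limbus over cornea, at 1.46 for beta5 (exact conditional interval 1.34 to 1.60), 2.06 for beta2 (1.83 to 2.33) and 1.28 for beta1 (1.12 to 1.46). Over the 3 pairs together the inducible share was 25.5% in the cornea and 35.8% in the limbus, with an odds ratio of 1.63 (1.54 to 1.72). These intervals compare 2 libraries and not the tissues of many animals.

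**Figure D2:**
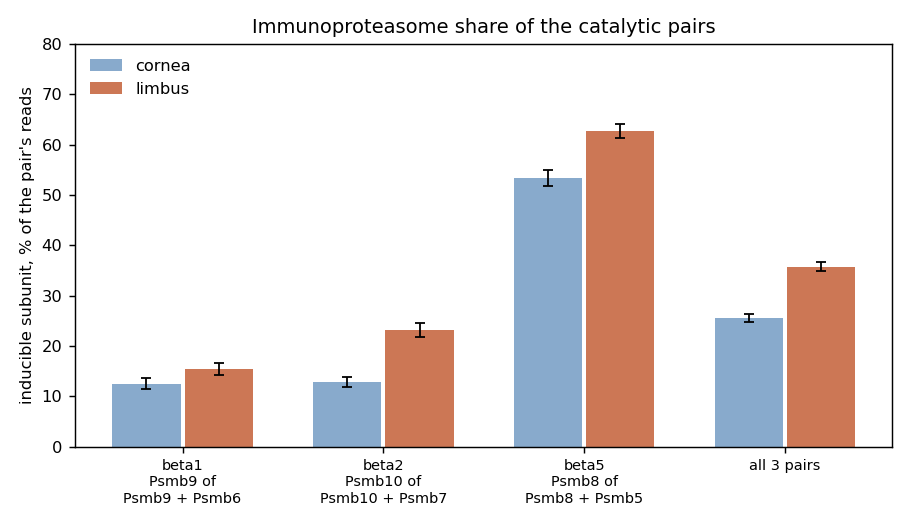
Share of the inducible subunit in the reads of each catalytic pair, in percent, in the cornea library (blue) and the limbus library (orange). Bars start at 0 and the error bars are exact 95% binomial intervals; the limbal bar is higher in each pair, and the beta5 pair has the highest share in both libraries (53.4% and 62.7%).

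Corrected for length, the same order of the pairs was found at lower shares. Per kilobase of exon, Psmb8 made up 38.8% of the beta5 pair in the cornea and 48.1% in the limbus, Psmb10 11.5% and 21.1% of the beta2 pair, and Psmb9 7.75% and 9.73% of the beta1 pair. By this measure of level the constitutive subunit exceeded its inducible partner in both tissues for all 3 activities, with the beta5 pair nearest to equal in the limbus. For beta5 the order depends on the length used, as Psmb8 had more reads than Psmb5 in both libraries. The length joins the exons of all basic annotated transcripts of a gene, 1.63 kilobases for Psmb8 and 0.899 for Psmb5. Which transcripts were expressed was not tested. The levels of the inducible subunits ran from 341 (Psmb9) to 1190 (Psmb8) normalized reads per kilobase in the cornea and from 463 to 1819 in the limbus. The 14 constitutive core genes, alpha and beta, had median levels of 2731 and 2223 normalized reads per kilobase. These 14 genes differed in this level by 3.38-fold from lowest to highest in the cornea and by 4.83-fold in the limbus.

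**Figure D3:**
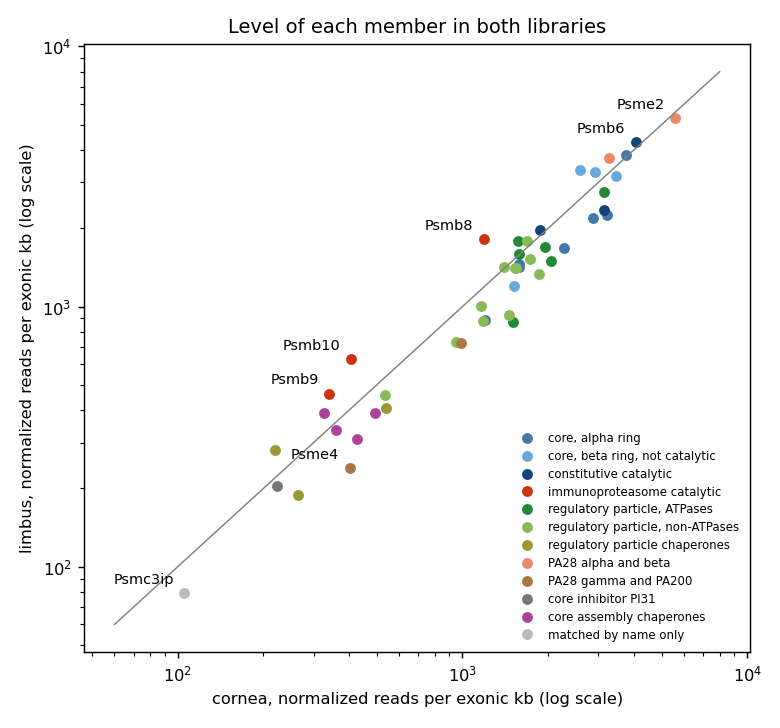
Normalized reads per kilobase of exon of the 47 members in the cornea (horizontal, log scale) and the limbus (vertical, log scale), coloured by role, with the line of equal level. Psme2 had the highest level in both libraries (5589 and 5293), and Psmb8, Psmb9 and Psmb10 lie above the line.

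The inducible subunits were also set against the whole constitutive core. The reads of Psmb8, Psmb9 and Psmb10 together came to 3030 (cornea) and 4267 (limbus), against 48001 and 40092 for the 14 constitutive core genes, an odds ratio of 1.69 (1.61 to 1.77). Each of the 3 had a higher ratio of limbus to cornea than each of the 14 core genes, the closest being Psmb3 (log2 0.38) to Psmb9 (log2 0.44), whose intervals overlap.

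Among the alpha subunits, which form the outer rings and the gate of the core, 6 of 7 had more normalized reads in the cornea, each beyond counting error (background 47.9% of all tested genes), with a median log2 ratio of -0.39 that turned to 0.12 and 0.22 on centring by transcript and coding GC content. The lowest was Psma6, with 3825 cornea and 2495 limbus reads (log2 -0.52), and the exception was Psma7, with 4584 and 4356 reads (0.02). On total reads, Psma2 and Psma5 turned to the limbal side, at 0.06 and 0.09. Of the 4 beta subunits without catalytic activity, Psmb3 (2050 and 2492 reads, log2 0.38) and Psmb4 (3572 and 3770 reads, 0.17) were higher in the limbus. Psmb1 (5367 and 3978 reads, -0.34) was higher in the cornea, as was Psmb2 (3075 and 2639 reads, -0.12), which turned to 0.08 on total reads.

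In the regulatory particle, 13 of 17 subunits had more normalized reads in the cornea, all 13 beyond counting error, and 2 (Psmc3 and Psmd8) exceeded it on the limbal side (background 47.9% and 31%). The median of the ATPases turned from -0.19 to 0.01 on total reads and to 0.11 on centring by coding GC content. That of the other subunits turned from -0.21 to 0.03 on the latter. Centring by transcript GC content left both medians on the corneal side, at -0.08 for the ATPases and -0.13 for the others. Psmc6, 1 of the 6 ATPases that unfold the substrate, had the lowest ratio of all members, with 3472 cornea and 1889 limbus reads (log2 -0.78, interval -0.86 to -0.70), or 1.72-fold more in the cornea. Psmc2 followed among the ATPases at -0.45, and Psmc3 stood at the other end at 0.20 (3299 and 3539 reads). Among the 11 subunits without ATPase activity, Psmd14, the deubiquitinase that removes the ubiquitin chain from the substrate, was lowest, with 2325 and 1383 reads (-0.65, interval -0.75 to -0.56). The ubiquitin receptor Psmd4 stood at -0.12 (2922 and 2508 reads), and Psmd2, a large scaffold subunit and the member of this group with the most reads, at -0.17 (5283 and 4381 reads). Psmd8 stood highest of them, at 0.09. On total reads, Psmc1, Psmc5, Psmd2, Psmd4 and Psmd7 turned to between 0.01 and 0.08.

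Other activators bind the core in place of the regulatory particle. PA28 alpha and beta, encoded by Psme1 and Psme2, are known to be induced by interferon gamma. Psme1 had 3767 cornea and 4015 limbus reads (log2 0.19, interval 0.12 to 0.25), which rose to 0.39 on total reads and 0.35 on centring by coding GC content. Psme2 had 5639 and 4997 (-0.08, interval -0.13 to -0.02), turning to 0.13 on total reads and to 0.09 on centring by coding GC content. Centring by transcript GC content lowered Psme1 to 0.10 and left Psme2 at -0.11. As scaled by size factors, their intervals lay below those of Psmb8, Psmb9 and Psmb10. The nuclear activators were both higher in the cornea. This direction held for both on centring by transcript GC content (-0.32 for Psme3 and -0.16 for Psme4). It turned for both on centring by coding GC content (0.13 for Psme3 and 0.18 for Psme4). Psme4, which encodes PA200, had 2693 and 1507 reads (-0.74, interval -0.83 to -0.65), and Psme3, which encodes PA28 gamma, had 2726 and 1862 (-0.45, interval -0.54 to -0.37).

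The chaperones that build the proteasome went both ways. Of those of the regulatory particle, Psmd9 was higher in the limbus (590 cornea and 703 limbus reads, log2 0.35). Psmd5 (1205 and 806 reads, -0.48) and Psmd10 (820 and 578 reads, -0.41) were higher in the cornea. Centring by transcript and coding GC content turned Psmd10 to 0.24 and 0.06 and left Psmd5 at -0.01 and -0.15. It put Psmd9 at 0.32 and 0.14. Of the core assembly chaperones, Psmg1 (530 and 393 reads, -0.34) and Psmg2 (575 and 389 reads, -0.47), which act as a pair, were higher in the cornea. Psmg3 was higher in the limbus (297 and 334 reads, 0.27), and its partner Psmg4 did not differ beyond counting error (207 and 180 reads). The 2 centrings put Psmg3 at 0.06 and 0.21, Psmg1 at -0.33 and -0.10, and Psmg2 at -0.16 and 0.0016. Psmf1, which encodes the core inhibitor PI31, had 920 and 786 reads and an interval from -0.27 to 0.01.

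The log2 ratio moved with the GC content of the transcript, in these genes and in the whole table. The ratios above are not centred on GC content unless this is stated. Over the 10216 tested genes with a known transcript, Spearman's rho between GC content and log2 ratio was 0.59, and over the 47 members it was 0.84; both are descriptions across genes of the same 2 libraries, and genes are not independent replicates. Member transcripts ran from 37.0% GC (Psmc6) to 58.3% GC (Psmd3). Psme4 and Psmd14, also past 1.5-fold in the cornea, had 43.9% and 43.2% GC. The immunoproteasome subunits lay at the GC-rich end, at 55.3% for Psmb9, 55.8% for Psmb8 and 56.5% for Psmb10. Psmb5, at 56.6% GC, and Psmb6, at 55.8%, match their inducible partners in GC content, whereas Psmb7, at 48.7%, does not match Psmb10.

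**Figure D4:**
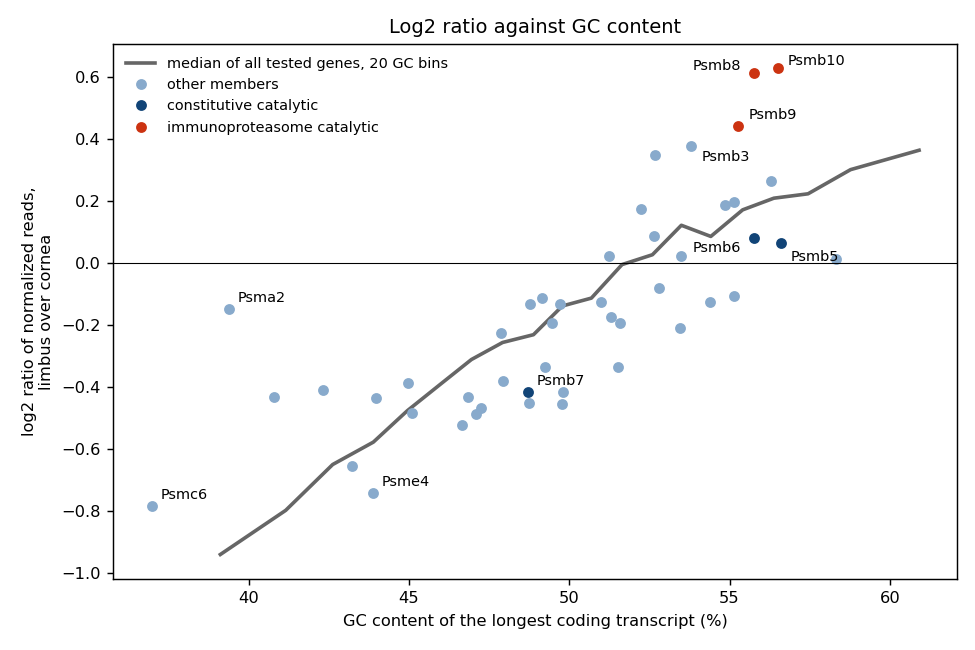
Log2 ratio of normalized reads, limbus over cornea, against the GC content of the longest coding transcript, for the 47 members (points) and as the median of all tested genes in 20 bins of GC content (line). The members follow the line upwards with GC content, and Psmb8, Psmb9 and Psmb10 lie above it while Psmb5, Psmb6 and Psmb7 lie below.

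When the median log2 ratio of genes of like GC content was subtracted, the members with more cornea reads went from 32 to 26 of 47 by the transcript and to 16 by the coding sequence, and the 3 immunoproteasome subunits stayed higher in the limbus. After this centring, which was chosen after seeing the data, Psmb8 stood at 0.44, Psmb10 at 0.42 and Psmb9 at 0.27, and with the GC content of the coding sequence in place of the transcript at 0.47, 0.42 and 0.30. Psmb5, Psmb6 and Psmb7 stood at -0.15, -0.09 and -0.19 by the transcript and at -0.07, -0.06 and -0.08 by the coding sequence. Psmc6, lowest before, went to 0.16 and 0.14, Psme4 to -0.16 and 0.18, and Psmd14 to -0.004 and 0.03. No member was then past 1.5-fold in the cornea by either measure, where 8.32% and 11.1% of all tested genes were. In the limbus, Psma2 alone was past it by the transcript (0.79, background 14.6%) and none by the coding sequence (background 14.1%), where Psma2 stood at 0.22; its longest transcript has 39.4% GC and its coding sequence 48.1%, and it shares exons or introns on its own strand with AW209491. By the coding sequence Psma3, at 0.49, stood above the immunoproteasome subunits, and Psme1, at 0.35, and Psmb3, at 0.38, stood above Psmb9. By the transcript, Psmb8 and Psmb10 each stayed above 13 of the 14 constitutive core genes and Psmb9 above 12, and the median of the 31 constitutive subunits was -0.05 by the transcript and 0.09 by the coding sequence. The odds ratio of the pairs was 1.28 for beta1 and 1.501 for beta5 after centring by the transcript, and 1.28 and 1.46 by the coding sequence, while that of beta2 fell to 1.52 and 1.41.

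**Figure D5:**
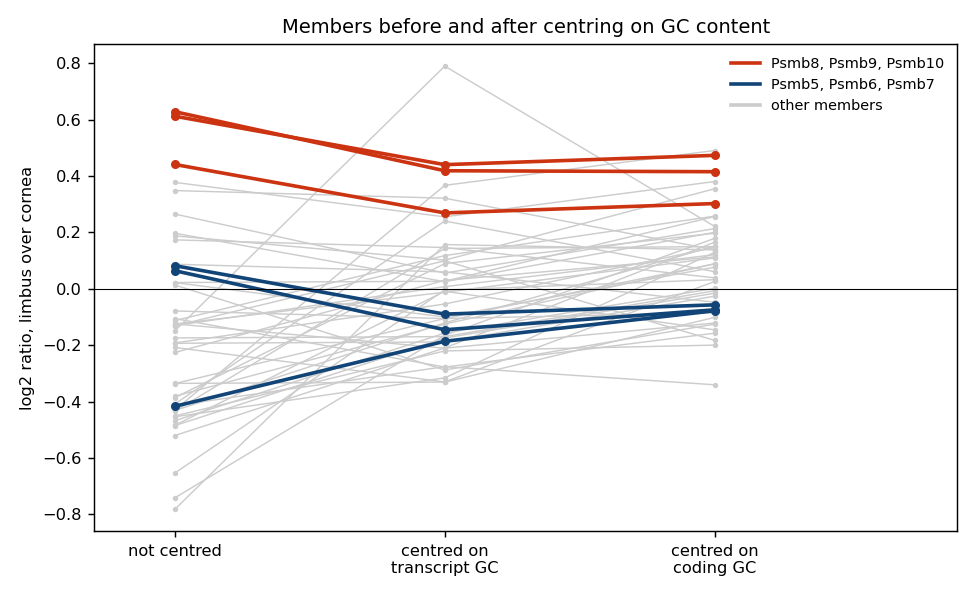
Log2 ratio of each member as measured, centred on genes of like transcript GC content, and centred on genes of like coding GC content. The inducible subunits (red) stay above the constitutive catalytic subunits (blue) in each setting; other members are grey, and the grey line that peaks at 0.79 is Psma2.

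Other genes of the pathway, on lists that include no member, were counted the same way. Of 12 genes for proteasome proteins outside the name rule, 5 were past 1.5-fold in the cornea (background 22.5%) and none in the limbus (background 14.1%), and of those with a known GC content none remained past it after centring by the transcript and Rad23b (log2 -0.69) did by the coding sequence. Among the 5 were the deubiquitinases Uchl5 (945 and 453 reads, log2 -0.97) and Usp14 (1536 and 755 reads, -0.93), both with transcripts of 39.2% GC and both near 0 after centring (-0.03 and 0.01). Pomp, the chaperone that completes the core and is needed for the immunoproteasome, had 4349 and 4399 reads (0.11). Of 7 regulators of proteasome genes, none was higher in the limbus beyond counting error and 5 were higher in the cornea (background 31% and 47.9%), with Nfe2l1, the factor that raises proteasome genes when the proteasome is blocked, at -0.14 (4279 and 3630 reads). On total reads, Nfe2l1 (0.06), Nfe2l2 (0.12), Vcp (0.22) and Ddi2 (0.004) stood on the limbal side. Keap1 (-0.03), Ngly1 (-0.23) and Nfe2l3 (-0.46) stayed on the corneal side. Nfe2l3 alone was past 1.5-fold by size factors, in the cornea (2573 and 1515 reads, log2 -0.67, background 22.5%). Centring by transcript and coding GC content put Nfe2l3 at -0.53 and -0.43. The same centrings turned Ngly1 to 0.22 and 0.15 and Nfe2l2 to 0.22 and 0.28.

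Genes of class I antigen processing, the pathway that the immunoproteasome feeds, lay beyond counting error on the limbal side in 5 of 7 cases (background 31%). B2m, the light chain of class I molecules, had 1770 and 3160 reads (log2 0.93), and Tap1, a subunit of the peptide transporter, had 1025 and 1797 (0.91). Tap2, the other subunit, stood at 0.56, as did Tapbp, which encodes tapasin. Psmb9, Tap1, Psmb8 and Tap2 lie side by side within 34.3 kilobases of chromosome 17, and their log2 ratios ran from 0.44 to 0.91. The peptide trimming enzyme Erap1 was higher in the cornea (1029 and 645 reads, -0.58), with a transcript of 41.5% GC, and stood at 0.22 after centring.

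Of 6 genes for ubiquitin and its activating enzymes, counting error was exceeded by 2 on the limbal and 3 on the corneal side (background 31% and 47.9%), and Uba6, an activating enzyme with a transcript of 37.4% GC, had 1162 and 310 reads (log2 -1.81, and -0.87 after centring).

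Of 6 interferon regulators, 5 exceeded counting error on the limbal side (background 31%). Irf1 stood at 0.07 (7525 and 7386 reads). Nlrc5, which drives class I genes, had 11 and 32 reads, Ciita, which drives class II genes, had 4 and 21, and Irf8, found in myeloid and B cells, had 32 and 82 reads, so the factors past 1.5-fold were those with few reads.

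Leukocyte and muscle markers differed more between the libraries than any proteasome gene. Of 11 leukocyte genes, 9 had more than 3 reads in both libraries, all 9 were past 1.5-fold in the limbus (log2 1.36 to 3.74), and the list summed to 897 cornea and 6522 limbus reads. Ptprc, which encodes CD45 and marks all leukocytes, had 30 and 72 reads, Cd74 had 413 and 3823, the T cell gene Cd3e had 1 and 4, and the B cell gene Cd79a was at 0 in the cornea with 1 read in the limbus. The endothelial list summed to 250 and 2930 reads and the skeletal muscle list to 82 and 9704, with no gene of either at 0 in a library. Corneal epithelial genes summed to 2404942 and 932901 reads, with Krt12 at 1137735 and 233324, and the 5 limbal and conjunctival keratins to 86789 and 630374. The 3 keratocyte genes summed to 51403 and 54106 but differed in direction. Kera had 12119 cornea and 1423 limbus reads, Dcn had 30813 and 44833, and Lum had 8471 and 7850. Both tissues thus carried the markers of their labels. The limbal library also carried leukocyte, vessel and muscle genes.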

How the data were processed

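Stranded total RNA libraries of pooled limbal rims and pooled corneal buttons were sequenced as paired-end reads. The authors trimmed adaptors, used CLC Genomics Workbench 20 to map the reads to GRCm38 (mm10), and name the trimmed mean of M-values as their normalization. The authors deposited 1 table of the comparison with, per gene, the mean normalized signal of both libraries, a shrunken log2 fold change with its standard error, and p-values. The authors' fold changes and p-values are not reported; the log2 fold change and its standard error served only to choose which pair of whole reads gave each mean. The header does not name the tissue of either sign, so the sign was set by genes that the study's text places in 1 tissue (7 of 7 limbal and 3 of 3 corneal genes then fell on their side).

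Of 40904 rows, 17484 carry no gene name and stayed out, and 5978 named genes are at 0. Each mean of the other 17442 genes is a sum of whole reads of 2 libraries, with 109 cornea reads worth 102 limbus reads, so the size factors were 1.03 and 0.967. The mean allowed 1 pair of reads for 6143 genes and several for 11299, and 99.9% were solved to within 0.1 read of a whole pair, the proteasome genes among them. The reads are thus derived values. The step was tested on simulated data before use.

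Reads were divided by the size factors. For the intervals (95% level), the exact Clopper-Pearson bounds of a gene's limbal share were converted to ratios, and odds ratios have exact conditional intervals. Exon lengths, overlaps (12 of the 49 genes with a protein-coding gene) and transcript GC content are from GENCODE M21. Accession numbers in the table are out of step with the symbols, so symbols were used. Of 18556 accession numbers found in RefSeq, 2 named the gene of their row. How reads shared with pseudogenes were counted is not given in the sources used here. Every matched gene with reads may be named, and other genes only from the lists by role and cell type; 1 listed gene is not reported here. Members and lists were chosen with earlier results of these data known. Python 3.11.15, numpy 2.4.6, scipy 1.17.1 and pandas 2.3.3 were used.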

Additional observations from a re-analysis of the deposited data

How the results depend on the processing

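No paired analysis was possible because the table holds 1 library per tissue and no result comes from a test. Scaling by a trimmed mean of log ratios and a pseudocount of 1 moved none of the 47 log2 ratios beyond its counting interval. Leaving out Psmc3ip could not change the counts past 1.5-fold, as Psmc3ip was not past that fold. A smallest mean of 10 could not change them either, as all 47 members already reached a mean of 100.

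Members past the fold in the limbus and the cornea were 5 and 19 at a log2 threshold of 0.32 (22.1% and 37.3% of all tested genes) and 0 and 0 at 2-fold (8.76% and 8.37%). Scaling to total reads put 3 members past 1.5-fold in the limbus and 0 in the cornea (19.8% and 14.2% of all tested genes). Psmb9, at 0.65, then joined Psmb10 and Psmb8. The same scaling gave 18 members beyond counting error in the limbus and 17 in the cornea (44.9% and 35.03%). Class medians then moved to 0.27 for the constitutive and 0.82 for the immunoproteasome catalytic subunits and to 0.013 for the ATPases. Of the members beyond counting error by size factors, those that turned were Psma2 (0.056), Psma5 (0.093), Psmb2 (0.081), Psmc1 (0.014), Psmc5 (0.012), Psmd2 (0.031), Psmd4 (0.081), Psmd7 (0.075) and Psme2 (0.13). Psmf1 (0.074) and Psmg4 (0.10), within counting error by size factors, also changed sign.

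Centring on transcript GC left 1 member past 1.5-fold in the limbus, 0 in the cornea, and 19 beyond counting error in the cornea (33.6% of all tested genes). Medians became 0.12 (alpha ring), -0.15 (constitutive catalytic), 0.42 (immunoproteasome), 0.24 (regulatory particle chaperones) and -0.0021 (PA28 alpha and beta), and the beta2 odds ratio 1.52. Of the members beyond counting error by size factors, those that turned were Psma1 (0.14), Psma2 (0.79), Psma3 (0.37), Psma4 (0.089), Psma5 (0.12), Psmb6 (-0.090), Psmc6 (0.16), Psmd10 (0.24), Psmd11 (0.030) and Psmd7 (0.0076).

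Centring on coding GC left 0 and 0 members past 1.5-fold, and 23 beyond counting error in the limbus and 7 in the cornea (35.4% and 35.01% of all tested genes). Medians became 0.22 (alpha ring), -0.075 (constitutive catalytic), 0.42 (immunoproteasome), 0.11 (ATPases), 0.026 (non-ATPases), 0.061 (regulatory particle chaperones) and 0.15 (PA28 gamma and PA200), the beta2 odds ratio 1.41. Of the members beyond counting error by size factors, those that turned were Psma1 (0.15), Psma2 (0.22), Psma3 (0.49), Psma4 (0.20), Psma5 (0.26), Psma6 (0.17), Psmb2 (0.11), Psmb6 (-0.057), Psmc1 (0.15), Psmc6 (0.14), Psmd1 (0.15), Psmd10 (0.061), Psmd11 (0.11), Psmd12 (0.088), Psmd13 (0.026), Psmd14 (0.032), Psmd7 (0.12), Psmd8 (-0.048), Psme2 (0.089), Psme3 (0.13), Psme4 (0.18) and Psmg2 (0.0016). Both centrings were chosen after seeing the data, and no cause of the relation with GC content was tested.

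Per exonic kilobase the inducible shares in cornea and limbus were 7.75% and 9.73% (beta1), 11.5% and 21.1% (beta2), 38.8% and 48.1% (beta5) and 17.6% and 25.3% (all 3 pairs). Without the beta1, beta2 or beta5 pair the summed share was 31.7%, 32.7% or 12.6% in the cornea and 45.7%, 40.8% or 19.1% in the limbus, and without the beta1 or beta2 pair the summed odds ratio was 1.82 or 1.42. Each pair's odds ratio stayed above 1 in every setting run.

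With 1 library per tissue, the size of the difference between animals is unknown. Psmg4 and Psmc3ip rest on the fewest reads.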
